A study of Mus musculus with 9 samples.

Results

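Protocadherins are cadherin-type adhesion proteins of the cell surface, and their messenger RNA was followed in mouse brain through ageing and through oral treatment of aged mice with a ginseng root polysaccharide fraction called GRP-E1F2. All genes of the deposited table whose symbol starts with Pcdh were taken, which gave 69 of 22192 genes. They comprise 14 members of the alpha cluster, 22 of the beta cluster, 21 of the gamma cluster and 12 genes that lie outside these clusters. The mice were male, as labelled, and of the outbred KM stock. Aged GRP-E1F2 mice were 18 months old and received 200 mg/kg of GRP-E1F2 by gavage, aged saline mice were 18 months old and received saline, and young saline mice were 5 months old and received saline. Dosing was every 2 days for 4 weeks in all 3 groups. Each group has 3 RNA-seq libraries, named as parallel samples. No label ties them to different animals, and the p-values below therefore reflect the spread among the libraries alone, which could be technical.

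In the clustered families each gene of the alpha or gamma cluster has its own promoter and its own large first exon, which is spliced to constant exons that the whole cluster shares, while each beta gene stands alone. A neuron uses a small random choice of the alternate promoters, which gives it a surface identity that lets its own branches recognise and avoid each other. The C-type members at the end of the alpha and gamma clusters (Pcdhac1, Pcdhac2, Pcdhgc3, Pcdhgc4 and Pcdhgc5) are not chosen at random but are switched on by cell type and stage. The genes outside the clusters are single genes, most of them of the delta group, and are known for regional expression and for roles in axon growth and synapse remodelling.

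Values are the authors' TPM (a transcript level scaled for length and for the total of the library), the depth behind them is unknown, and errors are SDs over the 3 libraries of a group. GRP-E1F2 library 3, aged saline library 2 and young library 3 each lay between the other pair of their group at 91.9%, 91.5% and 89.2% of the tested genes that differed at least 1.3-fold within that pair, and among protocadherins at 17 of 17, 8 of 8 and 7 of 7. Spreads and p-values over 3 libraries can therefore be too small, and counts of calls are given with and without these 3 libraries. The tissue is labelled brain while the extraction text speaks of retina. Markers of neurons averaged 7.83 to 8.09 on the log2(TPM + 1) scale in the 9 libraries. Against the label of male mice, no library had more than 0.174 TPM of any of Uty, Kdm5d, Eif2s3y and Ddx3y, which are Y-linked. Markers of brain regions differed strongly between the groups: the mean log2(TPM + 1) of 12 cerebellar genes was 2.36 to 2.47 in the GRP-E1F2 libraries, 6.60 to 6.71 in the aged saline libraries and 7.17 to 7.69 in the young libraries. All protocadherin results below were measured in these same libraries, and in bulk tissue fewer cells of a type and less RNA per cell cannot be told apart. Whether the same parts of the brain were sampled in each group is not known here. Treatment or age therefore cannot be told apart from a difference in the parts sampled. Rises and falls written below as with GRP-E1F2 or with age name only the groups compared.

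The protocadherins spanned a wide range of levels, with most members at a few TPM and a handful far above. The median of the 69 member means over the 9 libraries was 1.99 TPM. Pcdhgc3 was the highest at 33.7 TPM, followed by Pcdhgc5 at 32.0 TPM, Pcdh10 at 28.8 TPM and Pcdh1 at 25.6 TPM. The lowest was Pcdh12, a gene of vascular endothelium, at 0.0645 TPM. A mean of at least 1 TPM, which was required for testing, was reached by 57 members, and the other 12 are described by their values alone.

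The alpha cluster lies on chromosome 18 from 36930285 to 37188897, the beta cluster from 37264998 to 37521419 and the gamma cluster from 37661775 to 37841873 (GRCm38.p6, the assembly also called mm10). Within the alpha cluster the median member mean was 1.28 TPM, and Pcdhac2, the last alpha gene, stood apart at 10.8 TPM. Pcdhac2 is needed for the spacing of serotonergic axons. Among the beta genes, whose median was 1.90 TPM, none exceeded Pcdhb9 at 6.57 TPM. Among the gamma genes, with a median of 2.64 TPM, Pcdhgc3 and Pcdhgc5 were followed by Pcdhga4 at 7.99 TPM and Pcdhgc4 at 7.11 TPM. The Spearman coefficient between position along the cluster and mean TPM was 0.36 in each of the alpha (n = 14), beta (n = 22) and gamma (n = 21) clusters. This is a description across genes that share libraries and, in the alpha and gamma clusters, constant exons.

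**Figure D1:**
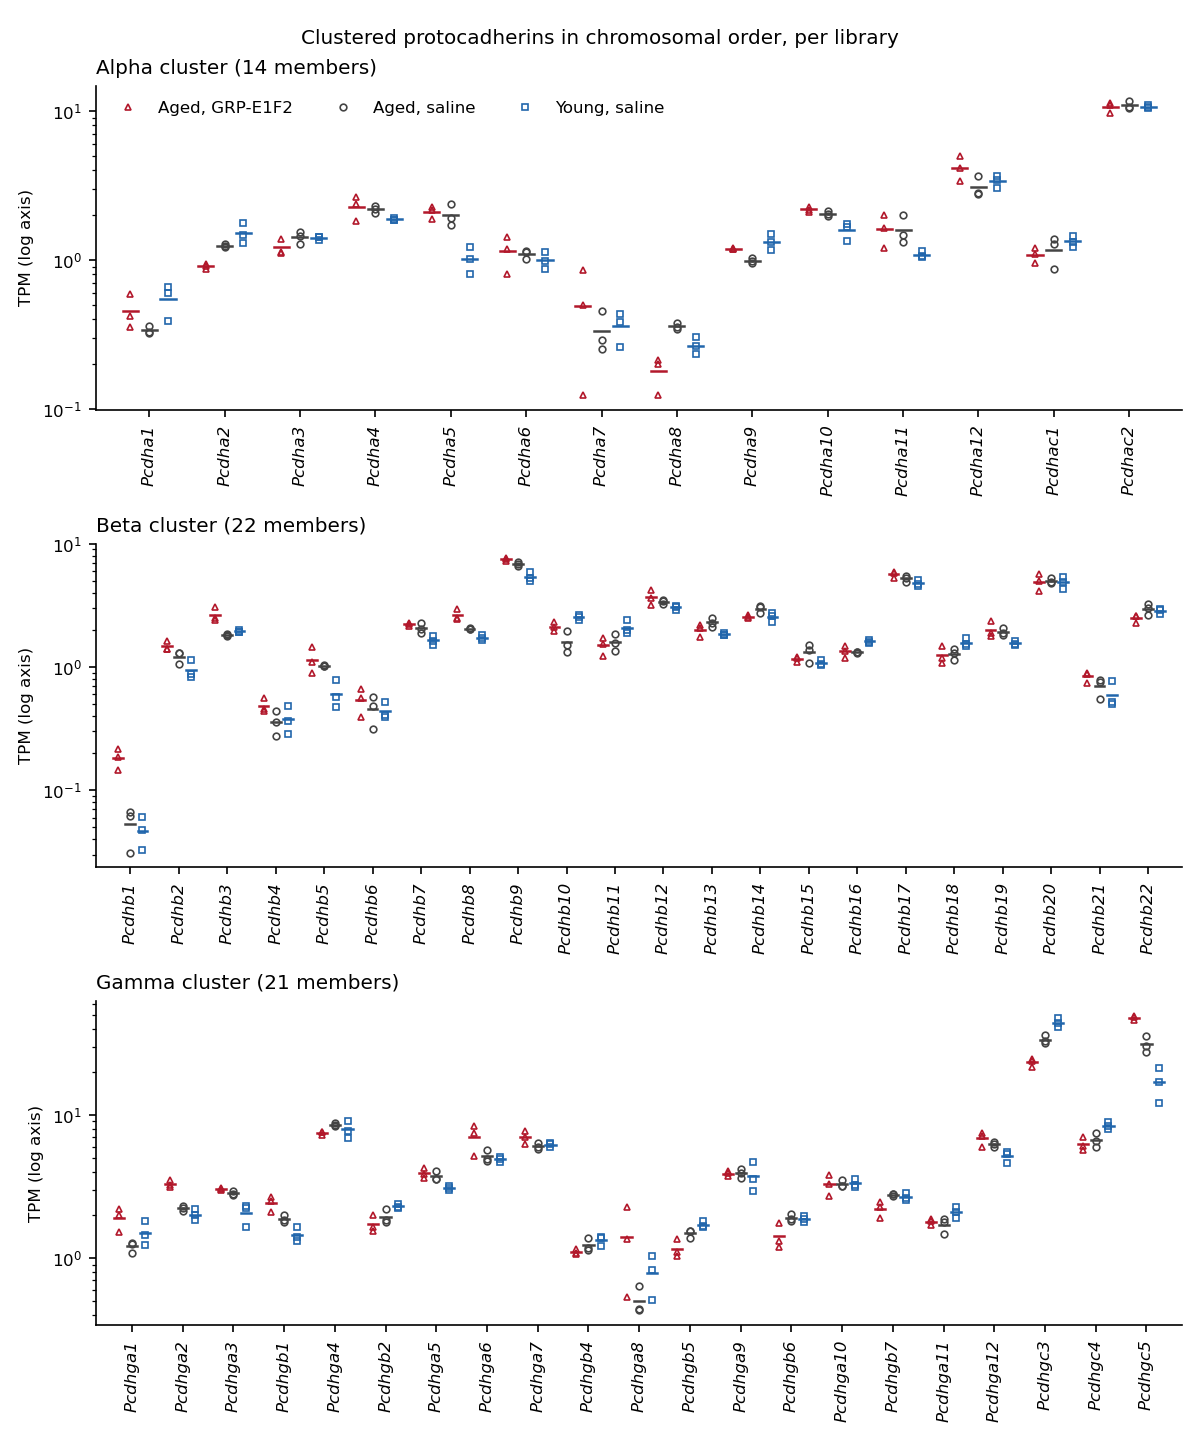
TPM of every clustered protocadherin on a log axis, in chromosomal order, with 1 point per library and a bar at the group mean (n = 3 per group; aged GRP-E1F2, aged saline and young saline from left to right). Many members overlap between groups, while Pcdhgc3 and Pcdhgc5 separate into 3 steps that run in opposite directions. Pcdhb8, Pcdhb9, Pcdhga3 and Pcdhgb1 also form 3 steps in the direction of Pcdhgc5, and Pcdha2 and Pcdhgb5 in that of Pcdhgc3.

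Aged GRP-E1F2 was set against aged saline, groups that differ in treatment and also in the region markers above. Of the 57 protocadherins tested, 10 rose and 1 fell at an adjusted p under 0.05 (limma on log2(TPM + 1), Benjamini-Hochberg over all 13301 genes tested), which is 17.5% and 1.75% of the members. Among all genes tested, 7.47% rose and 13.4% fell, and the difference between the members and all genes was not tested. Of the 10 that rose, 6 lie outside the clusters, 3 are in the gamma cluster and 1 is in the beta cluster, and no alpha member passed the test. The 2 groups did not overlap in 24 of the 57, or 42.1%, against 36.3% of all genes tested. The median log2 fold change was 0.05 over the 57 members and -0.02 over all genes. With 2 libraries per group, without the 3 libraries that lay between their group mates, no protocadherin passed the test, and the lowest adjusted p was 0.147. In that setting 8 of 57 members and 1790 of all 13299 genes tested had an unadjusted p under 0.05. At an adjusted p under 0.05, 0.105% of all genes rose there and 1.77% fell. The calls of Pcdhb3, Pcdhga1 and Pcdh20 also ended in a fit of only the aged groups, and those of Pcdhgc5 and Pcdh20 when no filter on low values was used. That of Pcdh20 ended under the replicate block too.

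Within the clusters, the largest log2 fold changes were those of the gamma C-type genes Pcdhgc5 and Pcdhgc3. Pcdhgc3, which shapes dendrite arbors of cortical neurons and dampens Wnt signalling, was 21.6, 24.8 and 23.9 TPM in the GRP-E1F2 libraries, 31.7, 32.8 and 36.2 TPM in the aged saline libraries, and 41.0, 47.5 and 44.0 TPM in the young libraries. Every GRP-E1F2 library was below every aged saline library, and every aged saline library was below every young library. Pcdhgc3 was lower with GRP-E1F2 than with saline in aged mice by a log2 fold change of -0.50 (SE 0.0799, adjusted p = 0.00298).

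Pcdhgc5, which in rat binds GABA-A receptors and stabilises inhibitory synapses, ran the other way. It was 49.2, 46.1 and 48.6 TPM in the GRP-E1F2 libraries, 35.7, 30.3 and 27.7 TPM in the aged saline libraries, and 21.4, 12.1 and 17.1 TPM in the young libraries. The 3 groups again did not overlap, with GRP-E1F2 at the top. Its log2 fold change for GRP-E1F2 against aged saline was 0.61 (SE 0.17, adjusted p = 0.0346). This call was lost when any GRP-E1F2 library, aged saline library 2 or 3, or young library 3 was left out, whereas the fall of Pcdhgc3 held without each single library and was lost only with 2 libraries per group (adjusted p = 0.387 for Pcdhgc5 and 0.147 for Pcdhgc3).

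The C-type share of the gamma sum differed little between libraries, while its make-up did not. Pcdhgc3, Pcdhgc4 and Pcdhgc5 together made 55.4% to 56.8% of the summed gamma TPM in all 9 libraries. Pcdhgc3 gave 16.9% ± 1.17 of the gamma sum with GRP-E1F2, 26.2% ± 2.19 in aged saline mice and 35.8% ± 3.40 in young mice, and Pcdhgc5 gave 34.6% ± 1.07, 24.4% ± 2.63 and 13.6% ± 3.47 (SD, n = 3 each). The ratio of Pcdhgc5 to Pcdhgc3 was 2.27, 1.86 and 2.04 in the GRP-E1F2 libraries, 1.13, 0.925 and 0.768 in the aged saline libraries, and 0.522, 0.256 and 0.389 in the young libraries. Pcdhgc5 was thus the higher of the pair in every GRP-E1F2 library and the lower in every young library, with the aged saline libraries on both sides of 1. The sum of Pcdhgc3 and Pcdhgc5 moved far less, at 70.8 to 72.5 TPM with GRP-E1F2, 63.1 to 67.5 TPM in aged saline and 59.6 to 62.3 TPM in young libraries. These genes share constant exons, and how reads in them were divided is unknown, so these shares, ratios and sums can depend on that division.

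**Figure D2:**
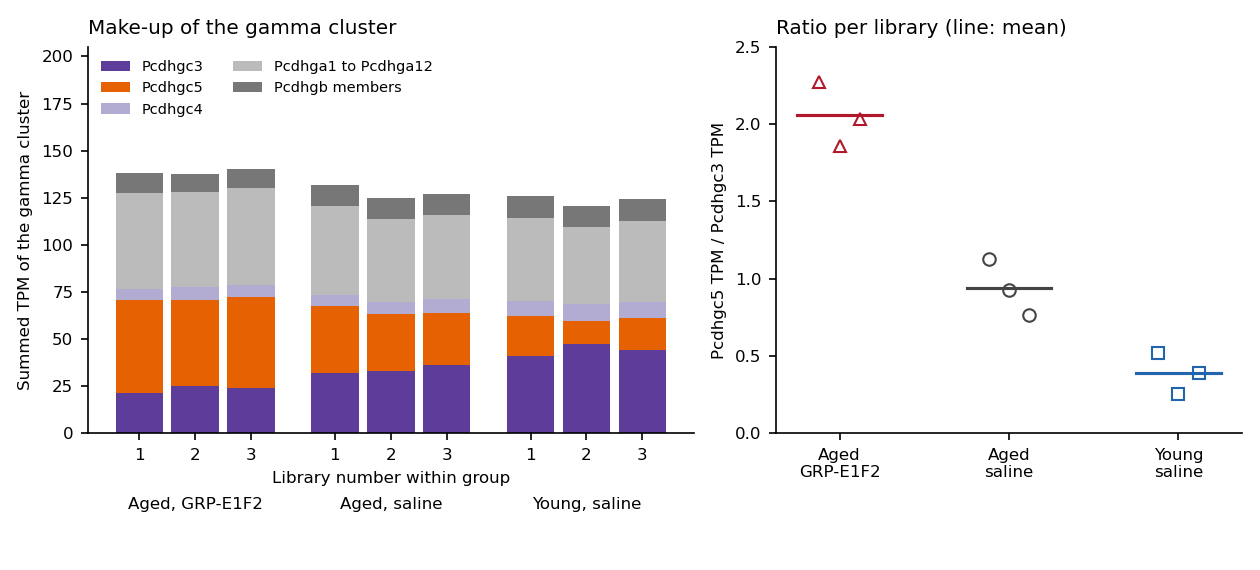
Left, stacked TPM of the gamma cluster per library, split into Pcdhgc3, Pcdhgc5, Pcdhgc4, the A genes and the B genes. Right, the ratio of Pcdhgc5 to Pcdhgc3 TPM per library with the group mean as a line (n = 3 per group). The ratio lies between 1.86 and 2.27 with GRP-E1F2, between 0.768 and 1.13 in aged saline and between 0.256 and 0.522 in young libraries.

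Region markers differed between and within the groups. The mean log2(TPM + 1) of the 8 neocortical marker genes was 5.64, 4.54 and 5.19 in the GRP-E1F2 libraries, 5.20, 4.97 and 4.79 in the aged saline libraries, and 4.51, 3.95 and 4.29 in the young libraries. That of the 8 striatal marker genes was 5.44, 6.86 and 6.36 with GRP-E1F2, 6.17, 5.92 and 5.71 in aged saline and 5.57, 3.00 and 4.87 in young libraries, and that of the 10 olfactory bulb and newborn neuron genes 2.80, 3.95 and 3.51, 2.40, 2.46 and 2.54, and 2.07, 1.59 and 1.94. Within the GRP-E1F2 group the ratio of Pcdhgc5 to Pcdhgc3 was thus highest in the library with the highest neocortical and the lowest striatal and olfactory bulb means. In the aged saline and young groups the library with the highest ratio had the highest neocortical and the highest striatal mean. Its olfactory bulb mean was the lowest of the group in aged saline and the highest in young libraries. Since 1 library of each group lies between the other pair at most genes that differ, such an order within a group is nearly fixed to be the same or reversed and is given as a description. Astrocyte markers stood at 5.56 to 5.68 with GRP-E1F2, 5.96 to 6.11 in aged saline and 6.36 to 6.54 in young libraries. The summed pituitary markers were 3.61, 830 and 424.5 TPM in the GRP-E1F2 libraries. They were 21.2 to 24.7 TPM in aged saline and 3.98 to 5.18 TPM in young libraries. All 12 cerebellar markers fell with GRP-E1F2, also with 2 libraries per group, and their summed level was 144 to 154 TPM with GRP-E1F2 against 2091 to 2482 TPM in aged saline libraries. Of the cerebellar genes, Fat2, a large cadherin of granule cells, averaged 0.00285 TPM with GRP-E1F2 and 10.2 TPM in aged saline mice, and Cbln3 averaged 0.190 and 276 TPM. The part of these differences in the protocadherin results was not tested.

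**Figure D3:**
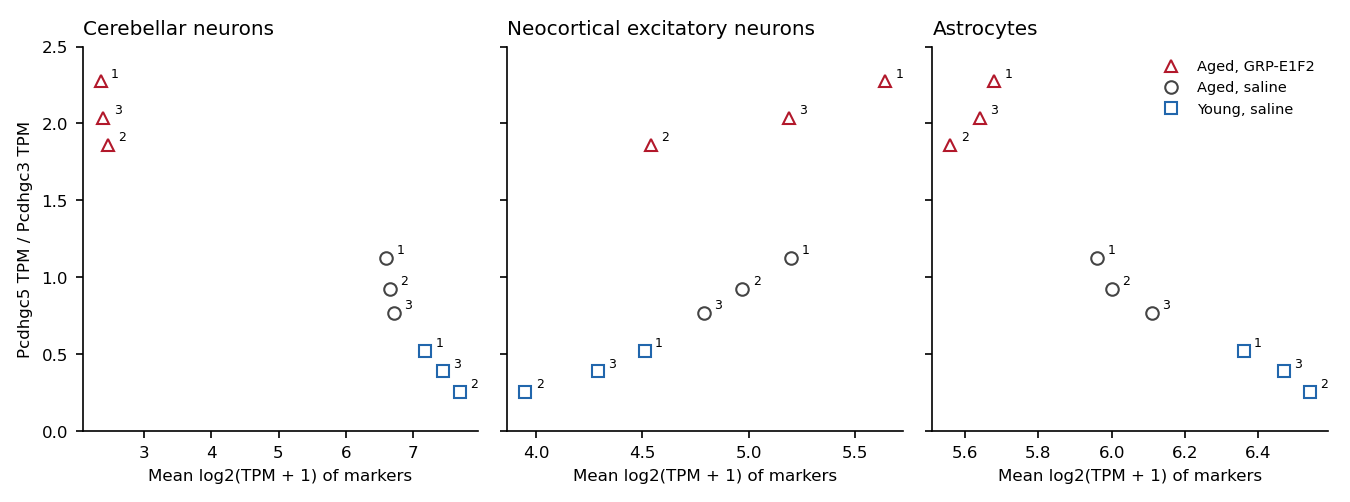
Ratio of Pcdhgc5 to Pcdhgc3 TPM against the mean log2(TPM + 1) of markers of cerebellar neurons, neocortical excitatory neurons and astrocytes, with 1 point per library and its number beside it. The GRP-E1F2 libraries lie at 2.36 to 2.47 on the cerebellar axis, apart from the aged saline libraries at 6.60 to 6.71 and the young libraries at 7.17 to 7.69.

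Pcdhgc4, the gamma gene required for the survival of interneurons, averaged 6.23 ± 0.673 TPM with GRP-E1F2 and 6.68 ± 0.746 TPM with saline in aged mice (SD, n = 3 each), and the groups overlapped (log2 fold change -0.09, adjusted p = 0.562). The alpha C-type genes differed as little. Pcdhac2 averaged 10.7 ± 0.809 TPM with GRP-E1F2 and 10.9 ± 0.639 TPM in aged saline mice, and Pcdhac1 1.08 ± 0.122 and 1.17 ± 0.264 TPM (SD, n = 3 each), with log2 fold changes of -0.03 and -0.06. Both of these small values change sign under quantile normalisation.

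Among the randomly chosen gamma genes, Pcdhga2 and Pcdhga1, which lie at the start of the cluster, rose with GRP-E1F2. Pcdhga2 was 3.26, 3.13 and 3.53 TPM with GRP-E1F2, against 2.12, 2.31 and 2.23 TPM with saline in aged mice. Its groups did not overlap, and the log2 fold change was 0.42 (SE 0.0816, adjusted p = 0.00778). Pcdhga1 was 1.53, 2.21 and 2.01 TPM with GRP-E1F2, against 1.09, 1.25 and 1.27 TPM with saline. Its log2 fold change was 0.40 with an adjusted p of 0.0457, and this call was lost without any aged saline library, without GRP-E1F2 library 2 or 3 and without young library 2 or 3. The summed A genes were 50.9 ± 0.866 TPM with GRP-E1F2 and 45.3 ± 1.78 TPM in aged saline mice (SD, n = 3 each), and the summed B genes were 9.68 to 10.6 TPM with GRP-E1F2 and 11.1 to 11.3 TPM in aged saline mice, and the groups did not overlap in either sum. No single B gene passed the test. The highest A gene, Pcdhga4, was 7.58, 7.61 and 7.29 TPM with GRP-E1F2 and 8.78, 8.47 and 8.41 TPM in aged saline libraries (log2 fold change -0.17, adjusted p = 0.220).

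In the beta cluster Pcdhb3 rose, with 3.07, 2.48 and 2.40 TPM in the GRP-E1F2 libraries against 1.86, 1.78 and 1.83 TPM in the aged saline libraries. Its groups did not overlap (log2 fold change 0.37, SE 0.0885, adjusted p = 0.0194), and the call was lost without aged saline library 2. The other 16 beta genes tested had log2 fold changes of -0.18 to 0.27. The highest beta genes did not pass the test. Pcdhb9 averaged 7.48 ± 0.178 TPM with GRP-E1F2 and 6.82 ± 0.268 TPM with saline, and its groups did not overlap (log2 fold change 0.12, adjusted p = 0.29). Pcdhb17 averaged 5.66 ± 0.312 and 5.23 ± 0.277 TPM, and Pcdhb20 4.92 ± 0.755 and 5.02 ± 0.253 TPM, both with overlapping groups (SD, n = 3 each). The 11 alpha genes tested had log2 fold changes of -0.24 to 0.34 and a lowest adjusted p of 0.101. The top of that range was Pcdha12, at 4.96, 3.40 and 4.11 TPM with GRP-E1F2 and 3.66, 2.82 and 2.75 TPM with saline, where the groups overlapped.

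Outside the clusters 6 of the 9 genes tested rose with GRP-E1F2 and none fell. The median log2 fold change of the 9 was 0.40, against -0.02 over all genes. Their summed level, over all 12 genes, was 129 ± 10.7 TPM with GRP-E1F2, 91.0 ± 2.85 TPM in aged saline and 77.5 ± 7.13 TPM in young mice (SD, n = 3 each), and the groups did not overlap. The sum over the 57 clustered genes was 219 ± 3.21, 204 ± 5.92 and 195 ± 1.43 TPM in the same order, and these groups did not overlap either. The 3 genes whose fold changes were largest are shown first, with the bases around their start sites.

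Start-site windows (250 bases before to 50 after the start) were found in the RefSeq promoter table of GRCm38.p6 for 9 of the 12 genes. The 3 short motifs below were searched on both strands: CGCT, the core of the element shared by most clustered protocadherin promoters, GGGCGG, the core of the SP1 site, and TGACG, from the CREB site. The windows of Pcdh10 (chr3:45378148-45378447, plus strand), Pcdh8 (chr14:79771263-79771562, minus strand) and Pcdh19 (chrX:133688944-133689243, minus strand) are printed because these genes had the largest changes, with every match on either strand in capitals.
Pcdh10: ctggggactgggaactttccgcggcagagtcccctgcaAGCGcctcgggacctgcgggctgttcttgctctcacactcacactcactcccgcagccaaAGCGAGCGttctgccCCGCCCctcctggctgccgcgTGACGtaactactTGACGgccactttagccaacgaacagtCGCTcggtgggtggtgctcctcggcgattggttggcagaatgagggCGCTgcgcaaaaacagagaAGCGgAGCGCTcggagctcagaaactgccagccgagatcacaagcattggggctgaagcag
Pcdh8: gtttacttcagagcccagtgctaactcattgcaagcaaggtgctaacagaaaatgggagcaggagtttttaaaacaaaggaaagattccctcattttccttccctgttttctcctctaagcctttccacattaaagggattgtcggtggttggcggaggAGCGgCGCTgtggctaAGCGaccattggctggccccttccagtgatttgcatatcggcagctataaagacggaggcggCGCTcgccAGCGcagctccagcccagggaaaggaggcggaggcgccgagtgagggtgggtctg
Pcdh19: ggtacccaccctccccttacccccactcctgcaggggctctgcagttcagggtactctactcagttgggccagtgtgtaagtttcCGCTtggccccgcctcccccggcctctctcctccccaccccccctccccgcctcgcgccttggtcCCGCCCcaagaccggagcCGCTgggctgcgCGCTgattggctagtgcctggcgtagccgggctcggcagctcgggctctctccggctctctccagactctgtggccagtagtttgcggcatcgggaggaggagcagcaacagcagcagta
The Pcdh10 window held CGCT 8 times, GGGCGG 1 time and TGACG 2 times, the Pcdh8 window held CGCT 5 times and neither of the others, and the Pcdh19 window held CGCT 3 times and GGGCGG 1 time. Where AGCG and CGCT overlap, as in AGCGCT, both were counted. Among all 32851 windows of the table, 61.8% held CGCT, 35.7% held GGGCGG and 20.8% held TGACG, while of the 10 windows of the 9 genes, which include 2 overlapping windows of Pcdh9, 10 held CGCT, 4 held GGGCGG and 3 held TGACG. The TGACG matches lay in Pcdh10 and in both windows of Pcdh9. All 3 motifs contain CG, and the median number of CG was 18 in these windows and 7 over all windows. A match says only that these letters are present.

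Pcdh10, which guides striatal and thalamocortical axons and recruits the WAVE actin complex, was the highest of these genes. It was 45.6, 40.9 and 42.9 TPM with GRP-E1F2, 27.3, 25.5 and 25.8 TPM in aged saline and 20.7, 13.1 and 17.4 TPM in young libraries. The 3 groups did not overlap. The log2 fold change for GRP-E1F2 against aged saline was 0.70 (SE 0.134, adjusted p = 0.0073), and the call held without each single library and was lost with 2 libraries per group (adjusted p = 0.202).

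Pcdh8, known as arcadlin in rat, where neuronal activity induces it and it drives N-cadherin into the cell, had the largest log2 fold change of the 57 tested members. It was 16.6, 14.3 and 15.4 TPM with GRP-E1F2, 5.73, 7.36 and 10.1 TPM in aged saline and 10.4, 9.06 and 9.71 TPM in young libraries. All GRP-E1F2 libraries were above all others, while aged saline and young libraries overlapped. The log2 fold change against aged saline was 0.94 (SE 0.158, adjusted p = 0.00384; 0.150 with 2 libraries per group).

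Pcdh19, an X-linked partner of N-cadherin whose human counterpart is mutated in an epilepsy of girls, was 3.66, 2.56 and 3.10 TPM with GRP-E1F2, 1.42, 1.59 and 1.78 TPM in aged saline and 2.34, 2.06 and 2.16 TPM in young libraries. The aged saline libraries were the lowest of the 3 groups and no groups overlapped. The log2 fold change for GRP-E1F2 against aged saline was 0.65 (SE 0.111, adjusted p = 0.00393; 0.197 with 2 libraries per group). Pcdh11x, the other X-linked member, was under the threshold for testing at 1.04 ± 0.115 TPM with GRP-E1F2, 0.835 ± 0.0844 TPM in aged saline and 0.547 ± 0.0882 TPM in young mice (SD, n = 3 each).

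Pcdh17, which organises synapses in corticostriatal circuits, was 7.83, 6.19 and 6.84 TPM with GRP-E1F2 and 5.28, 4.55 and 4.38 TPM with saline in aged mice (log2 fold change 0.47, SE 0.102, adjusted p = 0.0128). Pcdh1, an adhesion gene also known from airway epithelium, was 36.9, 28.6 and 32.8 TPM with GRP-E1F2 and 25.3, 24.1 and 23.9 TPM with saline (log2 fold change 0.40, SE 0.0989, adjusted p = 0.0213). Pcdh20 was 3.68, 5.18 and 4.56 TPM with GRP-E1F2 and 3.09, 3.23 and 3.37 TPM with saline (log2 fold change 0.36, SE 0.11, adjusted p = 0.0452). None of these 3 genes overlapped between the groups. The call was lost for Pcdh17 without aged saline library 2, for Pcdh1 without GRP-E1F2 library 3 or aged saline library 2 or 3, and for Pcdh20 without any aged saline library, without GRP-E1F2 library 2 or 3 and without young library 1 or 3.

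The 3 tested genes that did not pass were Pcdh9, Pcdh7 and Pcdh18, each with overlapping groups. Pcdh9, abundant in limbic regions, averaged 11.9 ± 0.872 TPM with GRP-E1F2 and 13.2 ± 1.61 TPM with saline in aged mice. Pcdh7 averaged 8.50 ± 1.73 and 7.27 ± 1.13 TPM, and Pcdh18, which binds the Reelin adaptor Dab1, 1.24 ± 0.310 and 1.11 ± 0.0549 TPM (SD, n = 3 each). Pcdh15, the tip-link protein of inner-ear hair cells, was below the threshold at 0.828 ± 0.200 and 0.542 ± 0.0263 TPM. Pcdh12 was 0.0223, 0 and 0.0108 TPM with GRP-E1F2 and 0.0446, 0.145 and 0.104 TPM with saline, while the endothelial genes Cldn5 and Pecam1 were at least 35.0 and 5.53 TPM in every library.

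**Figure D4:**
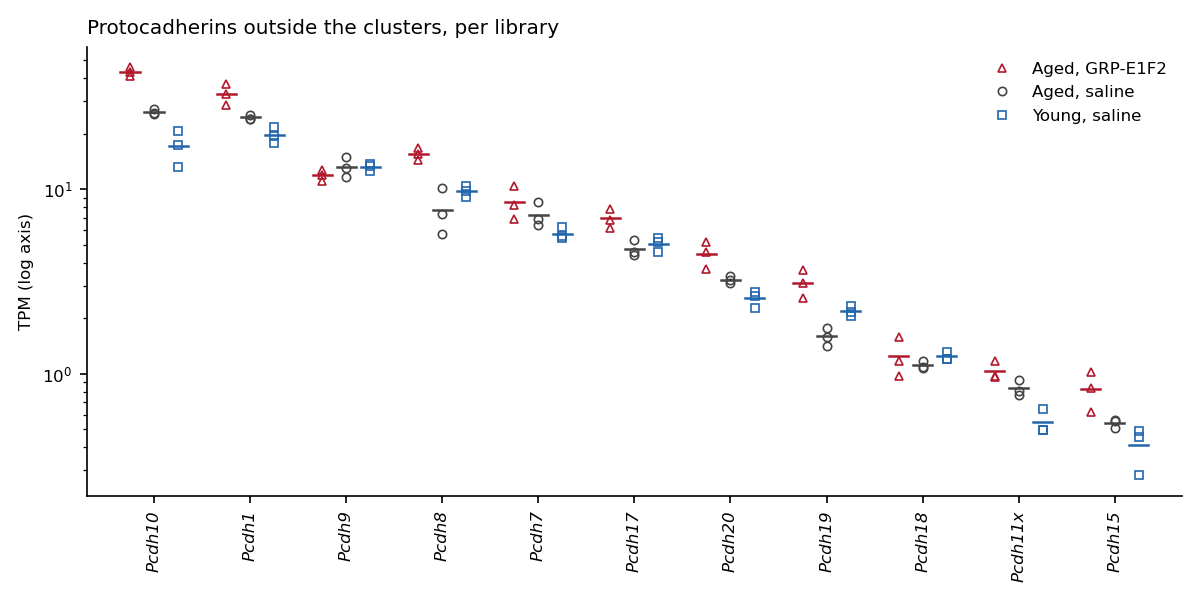
TPM of the protocadherins outside the clusters on a log axis, with 1 point per library and a bar at the group mean (n = 3 per group; aged GRP-E1F2, aged saline and young saline from left to right), ordered by mean. Pcdh12 is left out because 1 library was at 0. The GRP-E1F2 points of Pcdh10 lie at 40.9 to 45.6 TPM, above the aged saline points at 25.5 to 27.3 TPM.

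Some of the 9 clustered members below the threshold also separated in the table. Pcdhb1, the first beta gene, was 0.217, 0.186 and 0.146 TPM with GRP-E1F2 and 0.067, 0.0621 and 0.0311 TPM with saline in aged mice, and Pcdha8 was 0.202, 0.124 and 0.213 TPM with GRP-E1F2 and 0.380, 0.345 and 0.356 TPM with saline. With no filter on low values, Pcdhb1 passed the test as risen and Pcdha8 as fallen, beside 5.85% and 10.7% of all genes, and both were chosen for mention after their values were seen. Pcdhga8, also named after its values were seen, spread widely, at 2.28, 0.534 and 1.36 TPM with GRP-E1F2 against 0.634, 0.440 and 0.430 TPM with saline, and overlapped. The remaining 6, which are Pcdha1, Pcdha7, Pcdhb4, Pcdhb5, Pcdhb6 and Pcdhb21, had group means of 0.334 to 1.15 TPM in the 2 aged groups.

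Aged saline was set against young saline, groups that differ in age and also in region markers. Of the 57 members tested, 5 rose and 2 fell with age, or 8.77% and 3.51%, against 5.48% and 11.2% of all genes tested. The 5 that rose were Pcdha5, Pcdhb9, Pcdhga3, Pcdhgc5 and Pcdh10, and the 2 that fell were Pcdhb10 and Pcdhgc3. Aged saline and young libraries did not overlap in 33 of the 57, or 57.9%, against 41.5% of all genes tested. The median log2 fold change was 0.04 over the members and -0.05 over all genes. No member passed the test without aged saline library 2, without young library 3, or with 2 libraries per group. With 2 libraries per group the lowest adjusted p was 0.384, and 0.0226% of all genes passed in either direction. In that setting 4 of 57 members and 1433 of all 13299 genes tested had an unadjusted p under 0.05. This comparison shares the aged saline libraries with the treatment comparison, so their values are not independent.

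With the library values given above, Pcdhgc5 was higher in aged saline than in young mice by a log2 fold change of 0.88 (SE 0.17, adjusted p = 0.0138) and Pcdhgc3 was lower, at -0.38 (SE 0.0799, adjusted p = 0.017). Pcdh10 was higher by 0.61 (SE 0.134, adjusted p = 0.0198). Beside the calls that ended without aged saline library 2 or young library 3, that of Pcdhgc3 also ended without young library 2 and that of Pcdh10 without aged saline library 1. Of the cerebellar markers 11 of 12 fell with age, as did 6 of 9 astrocyte and 6 of 8 oligodendrocyte markers, while 2 of 8 neocortical markers rose. The 4 tested hindbrain and spinal cord markers fell, and the summed level of all 8 was 4.41 ± 2.88 TPM in aged saline and 47.3 ± 7.37 TPM in young mice (SD, n = 3 each). Of the meningeal markers 6 of 7 fell, and of the 3 olfactory nerve markers 2 rose, with a list median of 3.55. None of these markers passed with 2 libraries per group, and their part in the age differences was not tested.

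Among the randomly chosen genes Pcdha5 was 1.72, 1.91 and 2.36 TPM in aged saline libraries against 1.22, 0.806 and 1.02 TPM in young libraries. Every aged library was above every young one (log2 fold change 0.57, SE 0.115, adjusted p = 0.0154; lost also without young library 2). Pcdhb9 was 6.87, 6.54 and 7.07 TPM in aged saline and 5.03, 5.91 and 5.24 TPM in young libraries (log2 fold change 0.29, adjusted p = 0.0298), and Pcdhga3 was 2.93, 2.82 and 2.74 TPM in aged saline and 2.30, 1.64 and 2.23 TPM in young libraries (log2 fold change 0.33, adjusted p = 0.0459). Pcdhb10 had the lowest log2 fold change of the tested members, at 1.33, 1.52 and 1.95 TPM in aged saline against 2.56, 2.42 and 2.64 TPM in young libraries (log2 fold change -0.45, adjusted p = 0.0225). Each of these 4 genes was without overlap between the groups. The call of Pcdhb9 was lost without any aged saline library, without young library 1 and without GRP-E1F2 library 3, that of Pcdhga3 without any aged saline or GRP-E1F2 library and without young library 2, and that of Pcdhb10 without aged saline library 1 or young library 2. The calls of Pcdhb9 and Pcdhga3 also ended under the replicate block. That of Pcdhga3 ended too with a pseudocount of 0.1 TPM, with no filter and in a fit of only the groups compared.

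Of the C-type genes and the genes outside the clusters that did not pass, Pcdhgc4 averaged 6.68 ± 0.746 TPM in aged saline and 8.41 ± 0.449 TPM in young mice (log2 fold change -0.30, adjusted p = 0.0635), and Pcdh1 24.5 ± 0.767 and 19.7 ± 1.91 TPM (log2 fold change 0.30, adjusted p = 0.0641; SD, n = 3 each). Pcdh19 averaged 1.60 ± 0.180 TPM in aged saline and 2.19 ± 0.143 TPM in young mice (adjusted p = 0.0932), and Pcdh8, whose groups overlapped, 7.74 ± 2.23 and 9.72 ± 0.660 TPM (adjusted p = 0.182). The 10 other alpha genes tested lay between -0.23 and 0.31 on the log2 scale, the 15 other beta genes between -0.26 and 0.21, and the 17 other gamma genes between -0.30 and 0.23.

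**Figure D5:**
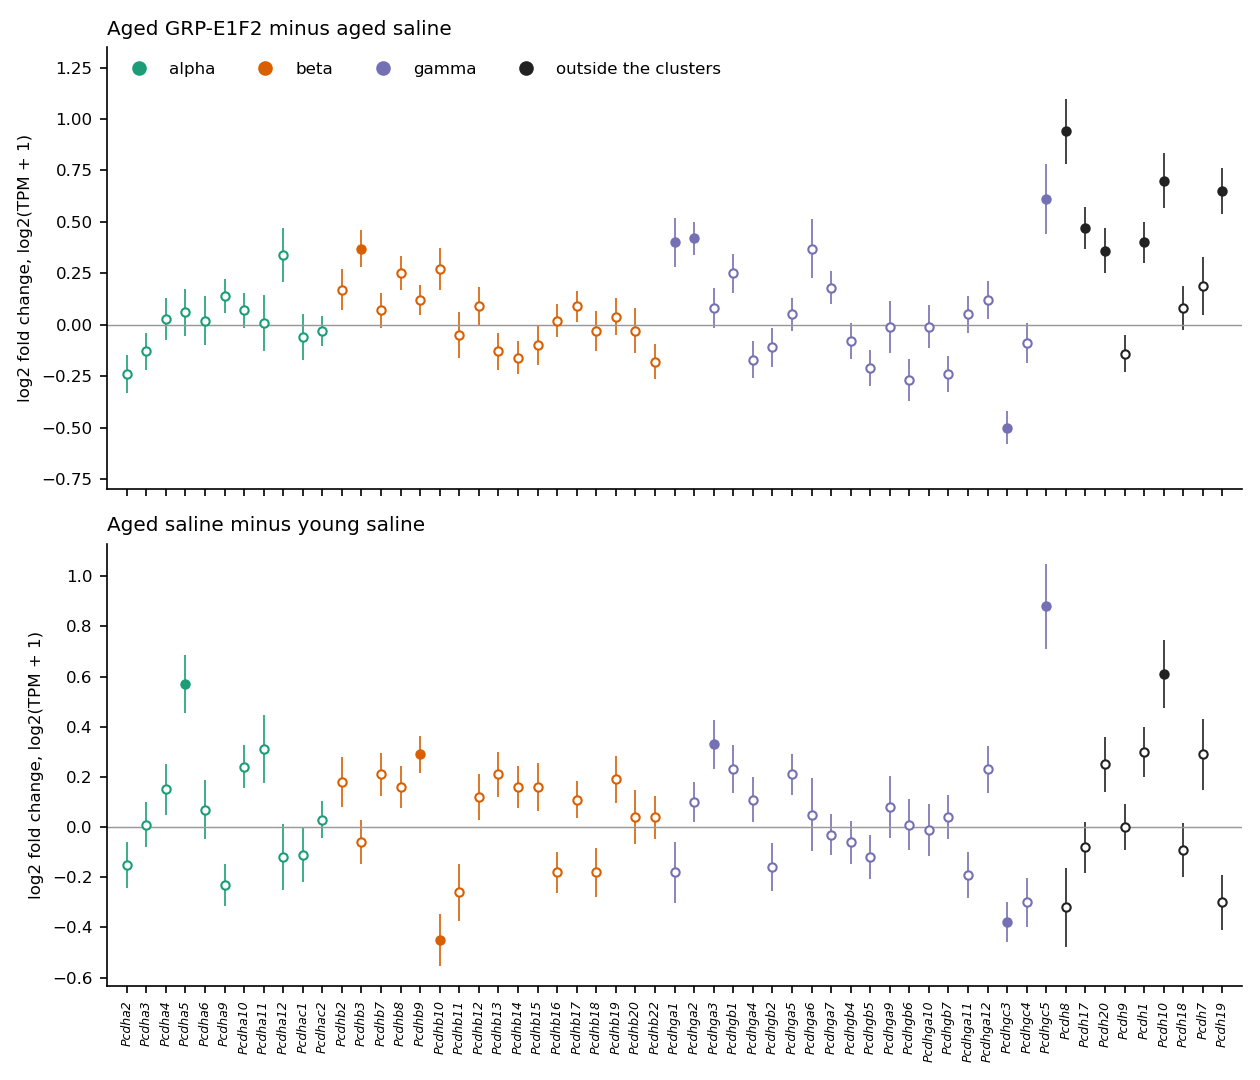
Log2 fold change on the log2(TPM + 1) scale of the 57 tested protocadherins, with bars of 1 SE, for aged GRP-E1F2 minus aged saline (top) and aged saline minus young saline (bottom). Filled points passed an adjusted p under 0.05. The genes outside the clusters, in black, have 6 filled points above 0 in the top panel and 1 in the bottom panel.

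Aged GRP-E1F2 was also set against young saline, a contrast that holds both age and treatment and shares libraries with each of the others. Of the 57 members, 21 rose and 5 fell, or 36.8% and 8.77%, against 17.2% and 29.4% of all genes tested. The groups did not overlap in 40 of the 57, or 70.2%, against 61.4% of all genes. The median log2 fold change was 0.15 over the members and -0.07 over all genes. Outside the clusters 7 of 9 rose, and in the beta cluster 5 of 17 rose and none fell. With 2 libraries per group, Pcdhgc5, Pcdh1 and Pcdh10 rose and Pcdhgc3 fell (adjusted p = 0.0154, 0.0382, 0.0115 and 0.0114), against 3.92% of all genes that rose and 8.97% that fell. These 4 genes passed in this comparison under every one of the 18 alternatives in which they were tested.

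The largest change was that of Pcdhgc5, which averaged 48.0 ± 1.61 TPM with GRP-E1F2 and 16.9 ± 4.62 TPM in young mice (log2 fold change 1.49, SE 0.17, adjusted p = 0.00017). Pcdh10 averaged 43.1 ± 2.32 and 17.1 ± 3.82 TPM (log2 fold change 1.31, SE 0.134, adjusted p = 9.29e-05), and Pcdh1 32.8 ± 4.18 and 19.7 ± 1.91 TPM (log2 fold change 0.70, adjusted p = 0.000515). Pcdhgc3 averaged 23.4 ± 1.63 TPM with GRP-E1F2 and 44.1 ± 3.27 TPM in young mice (log2 fold change -0.88, SE 0.0799, adjusted p = 4.54e-05; SD, n = 3 each). In all 4 genes the groups did not overlap.

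Among the other gamma genes, Pcdhga2 averaged 3.31 ± 0.208 TPM with GRP-E1F2 and 2.00 ± 0.187 TPM in young mice (log2 fold change 0.52, adjusted p = 0.000946), and Pcdhgb1 2.42 ± 0.284 and 1.46 ± 0.177 TPM (log2 fold change 0.47, adjusted p = 0.00344). The gamma genes that fell beside Pcdhgc3 were Pcdhgc4 and, named after their values were seen, Pcdhgb2 and Pcdhgb5. Pcdhgc4 averaged 6.23 ± 0.673 TPM with GRP-E1F2 and 8.41 ± 0.449 TPM in young mice (log2 fold change -0.38, adjusted p = 0.0101). The calls of Pcdhgc4, Pcdhgb5 and Pcdhgb2 ended under quantile normalisation, that of Pcdhgb5 also without GRP-E1F2 library 3, and that of Pcdhgb2 also under median-of-ratios scaling and the replicate block, without any young library, without GRP-E1F2 library 2 or 3 and without aged saline library 2.

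In the alpha cluster Pcdha5 averaged 2.11 ± 0.194 TPM with GRP-E1F2 and 1.02 ± 0.208 TPM in young mice (log2 fold change 0.63, adjusted p = 0.0021), and Pcdha10 2.19 ± 0.0798 and 1.58 ± 0.210 TPM (log2 fold change 0.31, adjusted p = 0.0161). Pcdha2 fell to 0.908 ± 0.0398 TPM with GRP-E1F2, against 1.51 ± 0.244 TPM in young mice (log2 fold change -0.39, adjusted p = 0.00764). In the beta cluster Pcdhb8 averaged 2.64 ± 0.288 TPM with GRP-E1F2 and 1.73 ± 0.0929 TPM in young mice (log2 fold change 0.41, adjusted p = 0.00347), Pcdhb9 7.48 ± 0.178 and 5.39 ± 0.462 TPM (log2 fold change 0.41, adjusted p = 0.00185), Pcdhb2 1.48 ± 0.132 and 0.948 ± 0.166 TPM and Pcdhb3 2.65 ± 0.366 and 1.95 ± 0.0557 TPM. The calls of Pcdha10 and Pcdhb2 each rested on single libraries, ending without GRP-E1F2 library 3 or young library 2 for Pcdha10 and without young library 3 for Pcdhb2, and that of Pcdhb3 ended without GRP-E1F2 library 1 or young library 2 or 3.

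Outside the clusters Pcdh8 rose by 0.62 (adjusted p = 0.0111), Pcdh20 by 0.61 (adjusted p = 0.00192), Pcdh7 by 0.48 (adjusted p = 0.0197), Pcdh17 by 0.39 (adjusted p = 0.0125) and Pcdh19 by 0.36 (adjusted p = 0.0255) on the log2 scale against young mice. Pcdh7 averaged 8.50 ± 1.73 TPM with GRP-E1F2 and 5.73 ± 0.409 TPM in young mice (SD, n = 3 each). The calls of Pcdh7 and Pcdh19 ended without GRP-E1F2 library 1 or 3 and without young library 2 or 3. In this comparison all 12 cerebellar and 8 of 9 astrocyte markers fell, while the other astrocyte marker, Slc1a2, rose. Of the neocortical markers 6 of 8 rose and 1, Neurod2, fell, and 4 of 8 striatal markers rose. With 2 libraries per group 12 cerebellar and 6 astrocyte markers fell, and 2 neocortical and 0 striatal markers rose (lowest adjusted p of the striatal markers 0.0889). Their part in the protocadherin values was not tested.

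Genes that act on or with protocadherins were read from lists chosen with earlier results of these data known. Of 18 tested genes of promoter choice and chromatin at the clusters, none rose and only Wiz, a zinc-finger protein needed for normal beta-cluster expression, fell with GRP-E1F2, to 12.1 ± 0.566 TPM against 14.9 ± 0.740 TPM in aged saline mice (adjusted p = 0.0127). Of all genes tested, 7.47% rose and 13.4% fell in that comparison. CTCF, the insulator protein that loops the chosen promoters to their enhancers, stood at 18.6 ± 0.626 and 20.5 ± 0.555 TPM (Ctcf, log2 fold change -0.13, adjusted p = 0.111). With age, Wiz fell to 14.9 ± 0.740 TPM in aged saline mice, against 18.3 ± 0.460 TPM in young mice (adjusted p = 0.0224), as did Dnmt1, the maintenance DNA methyltransferase (adjusted p = 0.0489), and none rose. The shares of all genes were 11.2% that fell and 5.48% that rose with age. Between GRP-E1F2 and young mice 9 of the 18 fell and 2 rose, where 29.4% of all genes fell and 17.2% rose, with Wiz, the cohesin subunit gene Stag1 and the methyltransferase gene Ehmt2 among them (log2 fold changes -0.56, -0.60 and 0.38). The list's median was -0.09 for GRP-E1F2 against aged saline and -0.16 for age. With 2 libraries per group none of the 18 passed in either of these comparisons, and only Wiz passed between GRP-E1F2 and young mice.

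Of 20 signalling partners, 5 rose and 1 fell with GRP-E1F2 against aged saline, where 7.47% of all genes rose and 13.4% fell, and the list median was 0.13. Prkca, a protein kinase C of the gamma-protocadherin dendrite pathway, averaged 19.9 ± 1.08 TPM with GRP-E1F2 and 9.24 ± 0.351 TPM in aged saline mice (log2 fold change 1.03, adjusted p = 2.68e-05), and its substrate gene Marcks 87.9 ± 3.66 and 63.2 ± 3.30 TPM (adjusted p = 0.00233). The others that rose were Dab1 and the WAVE complex genes Wasf1 and Abi2. Ret, a receptor kinase that phosphorylates clustered protocadherins, fell to 1.92 ± 0.156 TPM with GRP-E1F2, against 5.59 ± 1.65 TPM in aged saline mice (adjusted p = 0.00175). With age 4 of 20 rose and 2 fell, against 5.48% and 11.2% of all genes, among them Ptk2b, the kinase PYK2 that clustered protocadherins inhibit, at 104 ± 8.47 TPM in aged saline and 50.2 ± 19.2 TPM in young mice (adjusted p = 0.0174), Wasf1 (0.53, adjusted p = 0.00813) and Ret (-1.05, adjusted p = 0.00731). With 2 libraries per group, only Prkca passed for GRP-E1F2 against aged saline and none for age.

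Other adhesion families moved in both directions with GRP-E1F2 against aged saline. Among 17 classical and type II cadherins 4 rose and 2 fell, with Cdh13 rising by 0.62 (adjusted p = 0.0073), Cdh19 by 0.46 (adjusted p = 0.0116) and Cdh15, a cadherin of cerebellar granule cells, at 1.06 ± 0.0845 TPM with GRP-E1F2 against 9.09 ± 0.681 TPM in aged saline mice (log2 fold change -2.29, adjusted p = 4.31e-06). Among 10 other large cadherins 2 rose and 3 fell, led by Fat2 (values above), Celsr3 (-0.46, adjusted p = 0.00691) and Fat1 (-0.53, adjusted p = 0.0171). Among 20 synaptic adhesion genes outside the cadherins 5 rose and 1 fell, with Lrrtm4 rising by 0.53 (adjusted p = 0.0091) and Cadm3 at -0.62 (adjusted p = 0.000581). The list medians of 0.07, -0.03 and 0.21 stand beside 0.40 for the protocadherins outside the clusters and 0.02 to 0.04 for the 3 clusters. With age 0, 1 and 1 genes of these lists rose and 3, 2 and 2 fell. The shares over all genes given above for both comparisons stand beside these counts too. With 2 libraries per group, Fat2 and Cdh15 fell with GRP-E1F2 against aged saline and no other gene of these lists passed, and none passed for age.

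Limits of the table bear on the clustered genes. Members of the alpha cluster share constant exons with each other, as do members of the gamma cluster, and how reads in those exons were divided is unknown here, so a level of one member can hold reads of another. The read-through genes Gm38666 and Gm38667, which are listed for the same region, were at most 0.241 and 0.839 TPM.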

How the data were processed

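RNA-seq values of 9 brain libraries were used. Libraries were made with the NEBNext Ultra II kit from 0.4 ug of total RNA with random primers, per the labels' protocols. HISAT2, Picard, SAMtools 0.1.18, GATK and mm10 are named in the submitters' processing notes. The values in the deposited table are the authors' TPM, 1 per gene and library. Which tool counted reads, with which annotation and strand setting, is not given in the sources used. TPM keeps no depth, so no counting error can be given.

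After log2(TPM + 1), limma 3.58.1 in R 4.3.3 (1 model over 9 libraries, eBayes with trend, two-sided) was run on 13301 genes whose mean over the libraries reached 1 TPM. The Benjamini-Hochberg adjustment covered all of them. Fold changes on this scale understate the change of low genes. The model was tested on simulated data first. The simulated libraries were drawn independently of each other, so that test does not cover libraries that lie between their group mates. Python 3.11.15 with pandas 2.3.3 and matplotlib 3.10.9 served for the other steps. Positions and start-site windows come from RefSeq tables of GRCm38.p6, in which all 69 genes matched.

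The members, gene lists, tests and alternatives were chosen with earlier results of these data known. All genes outside the clusters and all C-type genes were described. In each cluster the 3 highest members, and up to 4 called members with the largest change per comparison, were named. Up to 3 called genes with the smallest adjusted p were named per list.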

Additional observations from a re-analysis of the deposited data

How the results depend on the processing

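The alternatives were fits of the compared groups alone, a replicate block, quantile normalisation, median-of-ratios scaling, pseudocounts of 0.1 and 5 TPM, a minimum mean of 5 TPM, no filter, 2 libraries per group, and leaving out each library. For GRP-E1F2 against aged saline, 5 members rose with a minimum mean of 5 TPM, 15 with quantile normalisation and 0 with 2 libraries per group, and 2 fell with no filter and 0 with 2 libraries per group. For aged against young saline, 3 rose and 1 fell with a minimum mean of 5 TPM, and 0 and 0 with 2 libraries per group. For GRP-E1F2 against young saline, 9 rose and 2 fell with a minimum mean of 5 TPM, 3 rose and 1 fell with 2 libraries per group, and 28 rose and 2 fell with quantile normalisation. A minimum mean of 5 TPM tests fewer genes, and 2 libraries per group use fewer samples. Leaving out 1 library gave 4 to 10 that rose and 1 to 2 that fell for GRP-E1F2 against aged saline, 0 to 5 and 0 to 4 for age, and 14 to 23 and 3 to 6 for GRP-E1F2 against young saline.

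Among the named members, small values that did not pass changed sign, and the cause was not tested. For GRP-E1F2 against aged saline these were Pcdha4 (-0.02 with 2 libraries per group) and, under quantile normalisation, Pcdhac1 (0.03), Pcdhac2 (0.02) and Pcdhb20 (0.04). For age it was Pcdh9 (0.04 under either scaling, 0.01 with 2 libraries per group). For GRP-E1F2 against young saline these were Pcdh18 (0.04 and 0.09 under median-of-ratios and quantile scaling, 0.00 with 2 libraries per group), Pcdhac2 (0.07 and 0.11 under those scalings) and Pcdhga4 (0.01 and 0.05). Over all 57 tested members, 2 libraries per group gave the other sign for 4 in GRP-E1F2 against aged saline and 1 with age at the 2 decimals printed, none above 0.04 in size. Leaving out 1 library also turned some signs, with ranges of -0.09 to 0.07 for Pcdh9, -0.01 to 0.06 for Pcdhac2 and -0.03 to 0.10 for Pcdhb20 with age. For GRP-E1F2 against aged saline they were -0.03 to 0.17 for Pcdh18, -0.05 to 0.13 for Pcdha4, -0.16 to 0.01 for Pcdhac1, -0.07 to 0.03 for Pcdhac2 and -0.12 to 0.07 for Pcdhb20. Against young saline they were -0.11 to 0.08 for Pcdh18, -0.04 to 0.06 for Pcdhac2, -0.08 to 0.10 for Pcdhb20 and -0.15 to 0.03 for Pcdhga4. Under the scalings the median fold change of all genes lay between -0.01 and 0.03.

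For libraries of different groups with the same number, the correlation of their deviations from the group means ran from -0.05 to 0.13. It exceeded 0.1 in 1 of 9 pairs, and 2 libraries correlated best with their own number. A library that lies between its group mates has small deviations, so a low correlation in pairs that hold one cannot exclude pairing. With the replicate block, 10 rose and 1 fell for GRP-E1F2 against aged saline, 4 and 2 for age, and 20 and 4 for GRP-E1F2 against young saline. With 3 libraries per group of unknown depth, small differences of low members could not be resolved.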
